A study of Mus musculus with 36 samples.

Results

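The nuclear lamina and envelope genes described here are Lmna, Lmnb1, Lmnb2, Lbr, Tmpo, Lemd3, Banf1, Sun1 and Sun2. They were chosen by symbol, with no use of their values in the rule, and make up 9 of the 54842 genes in the count table, where each is given by its Ensembl identifier. All 9 passed the filter on low counts. The lamina is a meshwork of lamin filaments beneath the inner nuclear membrane, built of the A-type lamins A and C (Lmna) and the B-type lamins (Lmnb1, Lmnb2). Proteins such as the lamin B receptor (Lbr), the lamina-associated polypeptide 2 family (Tmpo) and MAN1 (Lemd3) tie chromatin and the lamina to the inner membrane, and barrier-to-autointegration factor (Banf1) bridges LEM-domain proteins and DNA. SUN proteins cross the inner membrane and couple the lamina to the cytoskeleton through nesprins. The level of A-type lamin is known to scale with tissue stiffness, and loss of lamin B1 is a known mark of senescent fibroblasts.

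Total RNA was sequenced from mouse embryonic fibroblasts (MEF) that carried a doxycycline-inducible dCas9 cassette and a guide RNA to major satellite repeats (MSR), delivered together on a PiggyBac plasmid and kept as hygromycin-resistant mixed cultures. The MSR-dCas9-Control line expressed dCas9 with no effector, and the MSR-dCas9-Activator line expressed dCas9 fused to the transcriptional activator VPR. Each line was sampled without doxycycline (uninduced), with doxycycline at 10 ng/ml (induced, for 24 h in Control and 6 h in Activator), and 3, 6, 12 and 24 h after washing and return to medium without doxycycline. Each of these 12 groups had 3 replicates, and the MSR-dCas9-Repressor line was not analysed here. Line, effector and length of induction differed together and cannot be told apart. The paper describes the replicates as biological, from 3 independent experiments, and the labels do not say what a replicate number marks. The p-values set differences against the spread between these replicates. They do not cover the spread between separately made lines of the same construct.

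Gene counts per library ran from 27376846 to 57371803 with a median of 42865961, and the members held between 838 (Lemd3) and 35343 (Lmna) counts in any library. The targeted repeat, GSAT_MM, stood at 22.4 to 51.6 CPM (its count scaled to the total gene count of the library) over the 18 Control libraries, at 53.5 to 101 in uninduced Activator, and at 2324 to 40072 in the other Activator libraries. All 8 fibroblast markers had counts, with a summed level of 22051 to 34608 CPM in Control and 11218 to 34259 in Activator libraries. The sums of epithelial, blood, muscle and neuron markers stayed at or below 9.59 CPM in every library, with 1 epithelial and 2 blood markers at 0 in all Control libraries and 1 blood marker at 0 in all Activator libraries. Endothelial markers summed to at most 0.868 CPM in Control and to as much as 33.3 CPM in Activator libraries. Activator replicate 2 stood apart from replicates 1 and 3 for Lemd3, Banf1 and Lmna after induction. Results of Lemd3 and Banf1 that rest on it are given with and without it. In these bulk samples, fewer cells of a type and less RNA per cell cannot be told apart.

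CPM here are scaled by edgeR's trimmed mean of M values (TMM). Differences are log2 fold changes ± SE from edgeR's quasi-likelihood test with the replicate number as block, and a gene passed at a Benjamini-Hochberg adjusted p under 0.05 over 28542 genes tested. Under TMM the median difference of all genes between the lines was 0.03 before induction, 0.10 at induction, 0.15, 0.14 and 0.15 at 3, 6 and 12 h and 0.08 at 24 h. Scaling to the 13 mitochondrially encoded mRNAs moved this median to -0.27, -0.48, -0.62, -0.54 and -0.21 from induction to 24 h, while their summed level at 12 h was 25976 ± 6015 CPM in Activator and 16206 ± 1268 CPM in Control (SD, n = 3 each). The sign of modest rises therefore depends on the scaling, and differences from the all-gene median are given beside them.

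Promoter sequences are shown first for Tmpo, Lbr, Lemd3 and Banf1, the 4 genes outside the lamins and SUN genes, because their transcripts took different courses in the Activator line. The windows run from 250 bases before to 50 after a transcription start in RefSeq (GRCm38.p6), 5′ to 3′ on the gene's strand, and capitals mark matches on either strand to the CCAAT box, the CHR element TTTGAA, the E2F motif TTCCCGC, the E2F motif TTGGCGC and the GC box GGGCGG.

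Tmpo (chr10:91171570-91171869, minus strand): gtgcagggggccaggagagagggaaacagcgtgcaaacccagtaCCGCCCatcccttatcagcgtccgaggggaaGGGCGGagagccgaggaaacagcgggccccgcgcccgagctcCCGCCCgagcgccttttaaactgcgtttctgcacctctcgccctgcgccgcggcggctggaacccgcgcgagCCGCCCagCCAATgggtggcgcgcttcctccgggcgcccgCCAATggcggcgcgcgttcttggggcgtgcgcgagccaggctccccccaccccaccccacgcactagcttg
Tmpo, second window (chr10:91170501-91170800, minus strand): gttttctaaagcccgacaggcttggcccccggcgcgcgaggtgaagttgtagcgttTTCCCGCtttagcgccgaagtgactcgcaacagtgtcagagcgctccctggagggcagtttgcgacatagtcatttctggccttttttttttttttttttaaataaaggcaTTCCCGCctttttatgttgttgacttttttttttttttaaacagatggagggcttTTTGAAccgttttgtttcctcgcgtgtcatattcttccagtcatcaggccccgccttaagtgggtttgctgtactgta
Lbr (chr1:181842352-181842651, minus strand): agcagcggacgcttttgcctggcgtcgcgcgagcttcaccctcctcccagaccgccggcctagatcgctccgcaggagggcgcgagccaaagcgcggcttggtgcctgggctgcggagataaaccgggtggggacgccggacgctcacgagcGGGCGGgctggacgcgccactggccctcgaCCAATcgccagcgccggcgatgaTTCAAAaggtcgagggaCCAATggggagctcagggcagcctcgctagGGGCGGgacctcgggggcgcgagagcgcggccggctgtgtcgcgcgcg
Lemd3 (chr10:120979281-120979580, minus strand): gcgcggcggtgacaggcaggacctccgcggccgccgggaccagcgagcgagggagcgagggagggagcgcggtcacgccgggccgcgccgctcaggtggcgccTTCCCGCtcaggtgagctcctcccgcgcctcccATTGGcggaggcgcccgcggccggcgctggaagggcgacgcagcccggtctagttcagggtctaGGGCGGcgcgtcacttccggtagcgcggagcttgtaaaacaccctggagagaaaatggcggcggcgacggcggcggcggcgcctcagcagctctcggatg
Banf1 (chr19:5366827-5367126, minus strand): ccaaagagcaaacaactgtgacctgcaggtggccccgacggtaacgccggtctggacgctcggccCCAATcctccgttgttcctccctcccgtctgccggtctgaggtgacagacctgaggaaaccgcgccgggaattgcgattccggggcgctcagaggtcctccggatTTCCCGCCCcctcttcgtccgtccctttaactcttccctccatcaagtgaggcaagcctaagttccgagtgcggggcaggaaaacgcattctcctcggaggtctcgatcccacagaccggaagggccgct

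Positions are those of the first base of a match, with the start at 1 and the base before it at -1. The first Tmpo window held CCAAT at -53 and -21 from the start and GGGCGG at 4 positions between -206 and -61. The second, at a start further into the gene, held neither of these but TTTGAA at -28 and TTCCCGC at -194 and -83. Lbr held CCAAT at -68 and -28, a TTTGAA match at -45 between them, and GGGCGG at -98 and 3. Lemd3 held 1 match each to TTCCCGC at -147, CCAAT at -114 and GGGCGG at -50. Banf1 held CCAAT at -185 and TTCCCGC at -80, the latter overlapping GGGCGG at -77, and a second Banf1 window, not printed, held 4 matches to GGGCGG between -43 and 43. Over the 13 windows of 8 members, CCAAT was found in 8, GGGCGG in 9, TTTGAA in 3, TTCCCGC in 3 and TTGGCGC in 1. Among 32851 windows of mouse genes, 37.4% held CCAAT, 35.7% GGGCGG, 17.9% TTTGAA, 4.60% TTCCCGC and 2.45% TTGGCGC. A match describes the letters only.

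In the annotation of GRCm38 (GENCODE M21), the genes lie at chr3:88480147-88509956 (Lmna), chr10:80901203-80918245 (Lmnb2), chr1:181815335-181843046 (Lbr), chr10:91147571-91181315 (Tmpo), chr10:120923413-120979332 (Lemd3), chr19:5364638-5367168 (Banf1), chr5:139200637-139249840 (Sun1) and chr15:79724070-79742536 (Sun2). Sun1 is on the plus strand and the other 7 are on the minus strand. The location of Lmnb1 is not reported here. Counts are over the exons of each gene. Exons of Banf1 share 428 bases (28.6% of its exonic length) with Eif1ad on the opposite strand, so its counts are uncertain where strand was not used, and the strand setting is not given in the sources used here. Shared exonic length with opposite-strand genes was 9.24% for Lbr (Dnah14), 3.98% for Sun1, 2.71% for Sun2 and 2.22% for Tmpo.

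Per kilobase of exon, Lmna had the highest level of the 9 genes in uninduced Control cells, at 107.8 ± 16.3 CPM per kb, followed by Banf1 at 97.0 ± 6.51 (SD, n = 3 each), and the replicates of these 2 genes overlapped. Then came Lmnb1 at 61.5 ± 6.98, Tmpo at 32.8 ± 1.91 and Lbr at 25.7 ± 1.28 CPM per kb. Sun2 at 15.9 ± 1.46, Sun1 at 12.1 ± 0.211, Lmnb2 at 11.5 ± 0.582 and Lemd3 at 9.09 ± 0.451 CPM per kb followed, with no overlap between neighbours below Banf1. By this length both SUN genes and Lmnb2 were measured at levels near that of Lemd3, and Lmna, Banf1 and Lmnb1 well above them. The order depends on the union of exons taken as length. That union is 10998 bases for Tmpo and 7596 for Sun1, where the longest transcripts have 4441 and 4134 bases. For Lmnb1 and Sun2 the union is 2962 and 5420 bases and the longest transcript 2843 and 4413. No order by longest transcript was made.

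Across the course the Activator line held less Lmnb1, Tmpo and late Lmnb2 and Lbr transcript than Control, while Lmna did not separate the lines at any time under TMM. Before induction, 1 of the 9 genes was lower in Activator (Lmnb1) and 0 were higher, against 0.354% and 0.862% of all genes tested, and at an unadjusted p under 0.05 the counts were 4 lower and 1 higher. At induction 2 were higher and 2 lower, against 31.6% and 25.8% of all genes. At 3 h 2 were higher and 3 lower (39.3% and 31.7% of all genes), and at 6 h 3 were higher and 4 lower (41.1% and 33.3%). At 12 h 1 was higher and 4 lower (42.2% and 33.1%), and at 24 h 0 were higher and 6 lower (36.4% and 26.3%). DESeq2 called 1 higher and 4 lower at 24 h, and at an unadjusted p under 0.05 edgeR called 0 higher and 6 lower.

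So many genes passed after induction that a share of the 9 near these backgrounds is no result about them. The share that was lower at 24 h, 6 of 9, stood above the 26.3% of all genes, but all 9 members are abundant, and of the 13632 genes with a mean normalised count above 100, 44.7% were lower at 24 h and 49.3% at 12 h. The median difference of the 9 was -0.19 before induction and 0.09, 0.03, 0.06, -0.25 and -0.32 from induction to 24 h, where the median of these abundant genes was -0.26 at 12 h and -0.24 at 24 h. Beyond the study's own limits (more than 2-fold, mean normalised count above 100), Lmnb1 was lower at 6, 12 and 24 h and Tmpo at 24 h, where 10.3%, 10.4% and 3.31% of all genes were. Only the 13632 abundant genes could reach these limits, and 2944, 2969 and 944 of them were lower beyond the limits at these times. Over the whole course, in a model with time point and replicate, 2 were higher and 5 lower (45.4% and 37.0% of all genes). Lmnb1 alone was lower beyond the study's limits, as were 5.42% of all genes, or 1546 of the 13632 abundant genes.

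**Figure D1:**
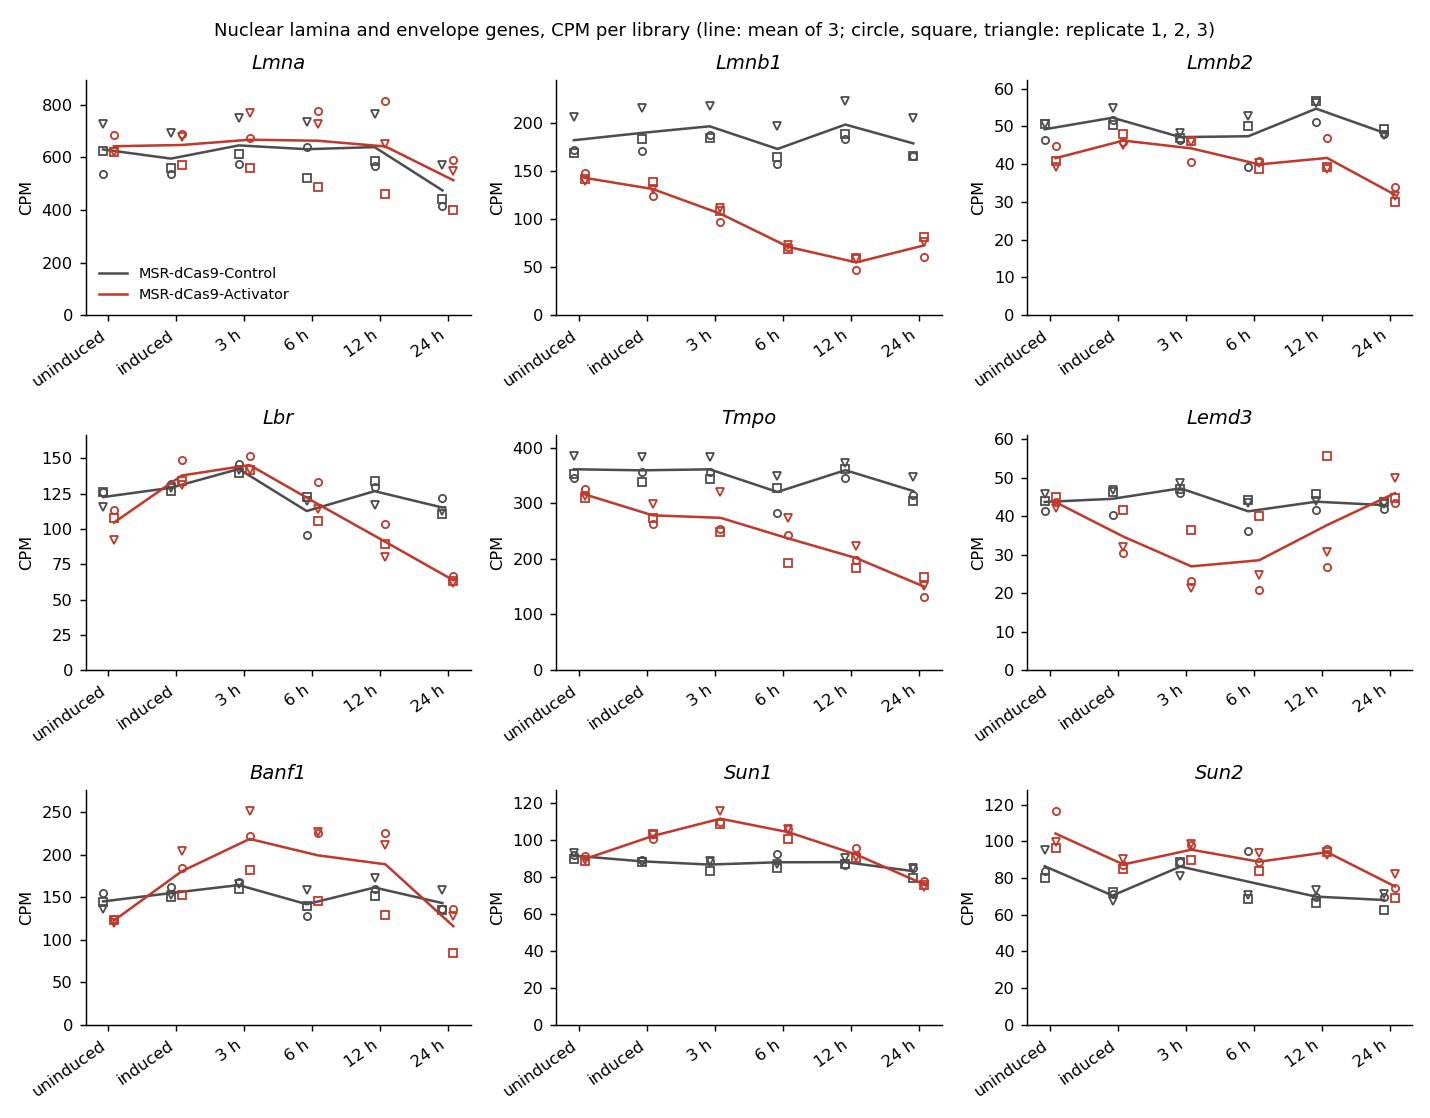
CPM of each gene (y axes) in every library at 6 time points (x axes) in Control and Activator cells, with circles, squares and triangles for replicates 1, 2 and 3 and lines through the means of 3. Lmnb1 and Tmpo lie lower in all Activator than in all Control libraries at each time, Lmna overlaps throughout, and Activator replicate 2 lies apart for Lemd3 after induction.

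Lmnb1, which encodes lamin B1, fell furthest. Uninduced Control libraries held 172, 168 and 206 CPM in replicates 1, 2 and 3, and uninduced Activator libraries 148, 141 and 140. At induction the values were 171, 183 and 215 in Control and 124, 139 and 131 in Activator. All Activator libraries were already below all Control libraries in both groups, with a difference of -0.34 ± 0.0886 before induction (edgeR adjusted p = 0.0493) and -0.52 ± 0.0887 at induction (edgeR adjusted p = 1.29e-05). The call before induction was weak: it was lost without Control uninduced replicate 1, 2 or 3 or Activator uninduced replicate 2 or 3, where the adjusted p ran from 0.0755 to 0.435.

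After removal of doxycycline Lmnb1 went on falling in the Activator line. The Activator replicates held 96.8, 108 and 112 CPM at 3 h and 70.9, 68.9 and 73.5 CPM at 6 h. They reached 46.8, 59.2 and 58.8 CPM at 12 h, the lowest of the course, and stood at 60.8, 81.2 and 76.1 CPM at 24 h. The Control replicates held 188, 185 and 218 CPM at 3 h, then 157, 165 and 197 CPM at 6 h, 184, 189 and 223 CPM at 12 h and 166, 165 and 205 CPM at 24 h. No Activator library after induction reached any Control library, and the Activator mean was 53.7%, 41.1%, 27.7% and 40.6% of the Control mean at 3, 6, 12 and 24 h. The difference was -0.90 ± 0.0892 at 3 h (edgeR adjusted p = 8.48e-10), -1.28 ± 0.0901 at 6 h (edgeR adjusted p = 1.12e-12), -1.85 ± 0.0917 at 12 h (edgeR adjusted p = 1.13e-15) and -1.30 ± 0.0902 at 24 h (edgeR adjusted p = 1.96e-12). Taken from the all-gene median, the 12 h difference was -2.03 to -1.95 over the 4 scalings.

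Within the Activator line, Lmnb1 was 2.62-fold lower at 12 h than before induction, a change of -1.39 ± 0.0906 (edgeR adjusted p = 2.33e-13), whereas its highest and lowest means in Control differed 1.15-fold. Between 12 and 24 h it moved back up by 0.40 ± 0.0894 (edgeR adjusted p = 0.00118), and this movement differed from that of Control by 0.55 ± 0.126 (edgeR adjusted p = 0.00346). Without replicate 3 in all 12 groups, a setting added after seeing the data, these values had an edgeR adjusted p of 0.0557 and 0.130, and without replicate 1 the second had one of 0.0532. The mean at 24 h, 72.7 ± 10.6 CPM, was still below the uninduced 143 ± 4.11 CPM (SD, n = 3 each), with a change of -0.98 ± 0.0896 (edgeR adjusted p = 3.56e-10).

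Lmnb2, which encodes lamin B2, changed to a smaller degree. Under TMM its change from uninduced in Activator was 0.0027 ± 0.0908 at 12 h (edgeR adjusted p = 0.98). At 24 h this change was -0.38 ± 0.0911 (edgeR adjusted p = 6.4e-04). The 12 h change differed from that of Control by -0.15 ± 0.128, which did not pass (edgeR adjusted p = 0.35). Control replicates held 46.3, 50.7 and 50.6 CPM before and 51.7, 50.5 and 54.7 at induction, and Activator replicates 44.7, 40.8 and 39.3 and 45.8, 48.0 and 44.9. At 3 and 6 h Control stood at 46.3, 47.0 and 48.2 and at 39.3, 50.2 and 52.7 CPM, and Activator at 40.6, 46.0 and 45.9 and at 40.9, 38.6 and 40.2 CPM. Before induction every Activator library already lay below every Control library, with a difference of -0.24 ± 0.0907 that did not pass (edgeR adjusted p = 0.263). Over these 4 times the lines lay close together, with 1 difference that passed, -0.25 ± 0.0908 at 6 h (edgeR adjusted p = 0.0162). That call was lost without Control 6 h replicate 2 or 3 or Activator 6 h replicate 2, and with DESeq2 size factors the value was -0.069 (edgeR adjusted p = 0.532). At 12 h the libraries held 51.1, 56.7 and 56.2 CPM in Control and 46.9, 39.1 and 38.8 in Activator, and at 24 h 47.9, 49.4 and 47.6 and 34.02, 30.0 and 31.7. All Activator libraries lay below all Control libraries at both times, and the difference grew from -0.39 ± 0.0908 at 12 h (edgeR adjusted p = 3.29e-04) to -0.60 ± 0.0912 at 24 h (edgeR adjusted p = 2.26e-06), when the Activator mean was 66.0% of Control. With DESeq2 size factors the 12 h value was -0.21 with an edgeR adjusted p of 0.0563, and under scaling to mitochondrial mRNAs the difference was smaller at 24 h (-0.85) than at 12 h (-1.03).

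Lmna, the source of lamins A and C, showed no difference between the lines that passed at any time under TMM. Under scaling to mitochondrial mRNAs it was lower in Activator by 0.54 at 3 h, 0.66 at 6 h and 0.65 at 12 h (edgeR adjusted p = 0.0023, 3.06e-04 and 3.37e-04). Control replicates held 537, 624 and 727 CPM before induction, 535, 557 and 692 at induction and 573, 612 and 749 at 3 h. Activator replicates held 684, 621 and 621, 689, 572 and 678 and 672, 560.3 and 767 CPM at the same times. The groups overlapped, and in both lines replicates spread widely. At 6, 12 and 24 h Control stood at 638, 521 and 733, at 566, 587 and 763 and at 414, 439.7 and 569 CPM. Activator stood at 777, 486 and 725, at 813, 459.8 and 649.5 and at 590.4, 399.9 and 548 CPM. Activator replicate 2 was the lowest of its 3 at each of these times. The difference between the lines was at most 0.12, at induction, with an SE of 0.143. Without replicate 1 in all 12 groups, a setting added after seeing the data, it was -0.29 at 12 h (edgeR adjusted p = 0.0391). Both lines had their lowest mean at 24 h, 513 ± 100 CPM in Activator and 474 ± 83.0 in Control, and the change from uninduced was -0.34 ± 0.143 in Activator (edgeR adjusted p = 0.0394) and -0.42 ± 0.143 in Control (edgeR adjusted p = 0.178). The first of these calls was lost without Activator uninduced replicate 1 or 2 or Activator 24 h replicate 2 or 3 (edgeR adjusted p from 0.129 to 0.194). The changes differed between the lines by 0.07 ± 0.203 (edgeR adjusted p = 0.859).

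**Figure D2:**
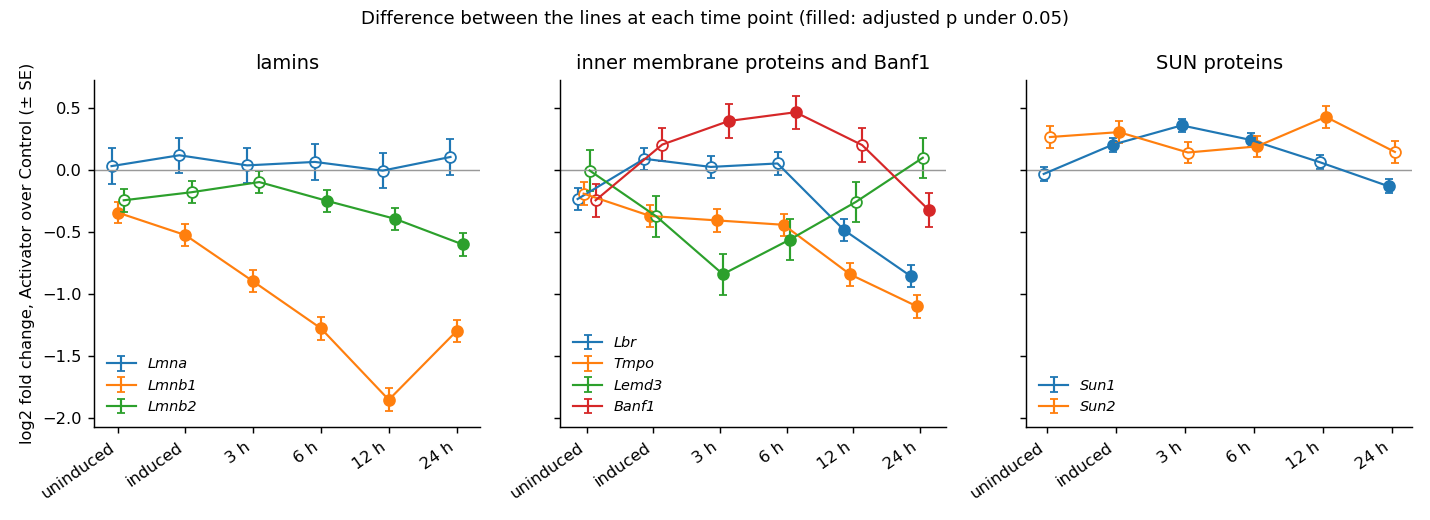
Log2 fold change ± SE of Activator over Control (y axes) at 6 time points (x axes) for the lamins, for the inner membrane proteins with Banf1, and for the SUN genes. Filled points passed at an edgeR adjusted p under 0.05. Lmnb1 reaches its lowest value, -1.85, at 12 h and Tmpo its lowest, -1.10, at 24 h, and the rises of Banf1, Sun1 and Sun2 after induction turn negative when libraries are scaled to mitochondrially encoded mRNAs.

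As Lmna and Lmnb1 parted, the make-up of lamin transcripts shifted. Lmnb1 as a share of the summed CPM per kb of the 3 lamin genes needs no scaling between libraries. Before induction it was 36.1, 32.4 and 33.8% in Control and 28.1, 29.2 and 29.0% in Activator replicates. At 12 h it was 36.3, 35.9 and 34.4% in Control and 9.52, 18.5 and 14.2% in Activator replicates. The Activator share was thus lower in 3 of 3 libraries at both times, and the Activator replicates spread more at 12 h. Means in Activator went from 28.8% ± 0.581 before induction to 16.7% ± 3.03 at 6 h, 14.1% ± 4.498 at 12 h and 20.9% ± 5.44 at 24 h, against 35.5% ± 1.02 in Control at 12 h (SD, n = 3 each). The difference was -5.31 percentage points before induction and -9.15, -13.0, -16.3, -21.5 and -18.7 from induction to 24 h. The groups did not overlap at any of the 6 times, and the two-sided exact permutation test gave p = 0.1 each, the smallest that 3 against 3 allows, and 0.1 after adjustment over 6 times.

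Tmpo, which encodes the lamina-associated polypeptide 2 proteins, was lower in the Activator line at all 6 times, and the difference passed from induction on. Control replicates held 345, 353 and 385 CPM before induction and Activator replicates 326, 309 and 313. At induction the values were 356, 339 and 383 and 263, 274 and 298 CPM, and at 3 h 356, 343 and 383 and 253, 248 and 321 CPM. The difference was -0.19 ± 0.0907 before induction, which did not pass (edgeR adjusted p = 0.466), -0.37 ± 0.0908 at induction (edgeR adjusted p = 0.00102) and -0.40 ± 0.0908 at 3 h (edgeR adjusted p = 2.70e-04). At 6 h Control libraries stood at 283, 328 and 349.5 and Activator libraries at 243, 193 and 274 CPM. At 12 h they stood at 345, 361 and 372 and 197, 184 and 223, and at 24 h at 314, 305 and 347 and 131, 168 and 151 CPM. In all 6 groups every Activator library lay below every Control library. The difference was -0.84 ± 0.0914 at 12 h (edgeR adjusted p = 3.15e-09) and -1.10 ± 0.0919 at 24 h (edgeR adjusted p = 6.13e-11), where the Activator mean was 46.6% of Control. Under TMM the change from uninduced did not pass as a difference between the lines at induction, 3 h or 6 h. The values were -0.18, -0.22 and -0.25 (edgeR adjusted p = 0.30, 0.17 and 0.10). At 12 h it passed, with -0.65 ± 0.128 (edgeR adjusted p = 1.32e-04). Unlike Lmnb1, Tmpo fell further between 12 and 24 h, by 0.42 ± 0.0911 on the log2 scale (edgeR adjusted p = 0.00102), though this did not pass as a difference from Control (-0.26 ± 0.129, edgeR adjusted p = 0.185). Under scaling to mitochondrial mRNAs the change was -0.12 (edgeR adjusted p = 0.544), and with library size alone it was -0.21 (edgeR adjusted p = 0.0527).

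Lbr, the lamin B receptor, first rose and then fell in the Activator line. Uninduced libraries held 126, 126 and 116 CPM in Control and 114, 108 and 92.0 in Activator, and induced libraries 132, 127 and 129 and 149, 134 and 131. At 3 h Control stood at 146, 139.5 and 142 and Activator at 152, 142 and 142 CPM, the highest mean of either line. Compared with uninduced Activator cells the rise was 0.40 ± 0.0895 at induction (edgeR adjusted p = 3.72e-04) and 0.48 ± 0.0895 at 3 h (edgeR adjusted p = 2.94e-05), and both values turn to -0.16 and -0.080 under scaling to mitochondrial mRNAs. The difference between the lines at these times was 0.09 and 0.03, with an SE of 0.0893 and 0.0892, and neither passed under TMM, while the 3 h value was -0.56 under scaling to mitochondrial mRNAs (edgeR adjusted p = 0.00129). At 6 h Lbr stood at 95.7, 122 and 120 in Control and 134, 106 and 114 CPM in Activator, with overlapping groups. At 12 h it stood at 129, 134 and 117 and 103, 89.0 and 80.3, and at 24 h at 122, 111 and 112 and 66.3, 62.8 and 62.0 CPM. The groups had separated, and the difference was -0.48 ± 0.0897 at 12 h (edgeR adjusted p = 2.19e-05) and -0.85 ± 0.0903 at 24 h (edgeR adjusted p = 4.75e-09). Before induction every Activator library already lay below every Control library (-0.23 ± 0.0894, edgeR adjusted p = 0.289). Control also rose at 3 h, by 0.22 ± 0.0893, which did not pass (edgeR adjusted p = 0.426). Under TMM the change from uninduced passed as a difference between the lines at induction and 24 h. At 3, 6 and 12 h it did not (0.26, 0.29 and -0.25, edgeR adjusted p = 0.092, 0.059 and 0.098). From 12 to 24 h Lbr fell by 0.51 ± 0.0900 on the log2 scale in Activator (edgeR adjusted p = 1.29e-04), and the change differed from Control by -0.37 ± 0.127 (edgeR adjusted p = 0.0455). Under scaling to mitochondrial mRNAs these 2 values were -0.23 (edgeR adjusted p = 0.251) and 0.0097.

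Lemd3, whose product MAN1 is a LEM-domain protein that binds receptor-regulated SMADs, was low early and returned. Before induction the groups overlapped, at 41.4, 44.0 and 45.7 CPM in Control and 43.8, 45.1 and 42.1 in Activator. At induction Control held 40.4, 46.3 and 46.8 and Activator 30.4, 41.7 and 31.9, and at 3 h 46.1, 47.0 and 48.7 and 23.1, 36.4 and 21.4 CPM. At 3 h all Activator libraries were below all Control libraries, with replicates 1 and 3 far below replicate 2. The difference was -0.84 ± 0.164 at 3 h (edgeR adjusted p = 5.39e-05), or 1.79-fold lower. At 6 h the values were 36.2, 44.1 and 43.5 in Control and 20.9, 40.1 and 24.7 in Activator, and at 12 h 41.7, 45.8 and 43.8 and 26.7, 55.6 and 30.7 CPM. Replicate 2 lay within or above the Control range at both times while replicates 1 and 3 lay below it. The difference was -0.56 ± 0.164 at 6 h (edgeR adjusted p = 0.00322) and -0.25 ± 0.163 at 12 h (edgeR adjusted p = 0.158). The 6 h call was lost without replicate 1 (-0.46, edgeR adjusted p = 0.0780) or replicate 3 (-0.43, edgeR adjusted p = 0.116) in all 12 groups. Without replicate 2 in all 12 groups, a setting added after seeing the data, the 12 h value was -0.55 (edgeR adjusted p = 6.50e-06) and the induced value -0.46 (edgeR adjusted p = 8.04e-05), against -0.37 ± 0.163 with it (edgeR adjusted p = 0.0517). The induced value also passed without Control induced replicate 2 alone (-0.44, edgeR adjusted p = 0.0438), and the 12 h value without Activator 12 h replicate 2 alone (-0.50, edgeR adjusted p = 0.00512). At 24 h Control libraries held 41.9, 43.7 and 43.0 and Activator libraries 43.4, 44.7 and 49.8 CPM, and the difference was 0.10 ± 0.162 (edgeR adjusted p = 0.598).

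Banf1, which encodes a small DNA-binding protein that gathers LEM-domain proteins as the envelope re-forms after mitosis, moved the other way early on. Uninduced libraries held 155, 144 and 136 CPM in Control and 125, 124 and 119 in Activator. At induction they held 162, 151 and 152 and 184, 153 and 205, and at 3 h 168, 159.7 and 166 and 222, 182 and 251 CPM. From the lower side before induction, all Activator libraries came to lie above all Control libraries at 3 h. At 6 h the values were 128, 139.5 and 158 in Control and 225, 145 and 227 in Activator. At 12 h they were 160.2, 151 and 173 and 226, 129 and 211, and at 24 h 136, 134 and 159 and 136, 84.7 and 127 CPM. Activator replicate 2 was the lowest of its group at each time from induction on. Within the Activator line the rise from uninduced was 0.82 ± 0.136 at 3 h (edgeR adjusted p = 5.37e-06). Against Control the difference was 0.40 ± 0.135 at 3 h (edgeR adjusted p = 0.01) and 0.47 ± 0.135 at 6 h (edgeR adjusted p = 0.00281), but -0.19 and -0.25 under scaling to mitochondrial mRNAs. Relative to the median of all genes the 3 h value lay 0.23 to 0.29 above it over the 4 scalings.

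The call at 3 h was lost without Activator 3 h replicate 3 (0.34, edgeR adjusted p = 0.0501). Without replicate 1 in all groups the 3 h and 6 h values were 0.39 and 0.30 (edgeR adjusted p = 0.0578 and 0.135), and without replicate 3 they were 0.30 and 0.44 (edgeR adjusted p = 0.194 and 0.0581), so both calls were lost either way. Without replicate 2 in all groups, Banf1 was also higher at induction (0.32, edgeR adjusted p = 0.00637) and at 12 h (0.42, edgeR adjusted p = 4.06e-04), where the values with it were 0.21 ± 0.135 and 0.20 ± 0.135. At 24 h Banf1 was lower in Activator, a difference of -0.32 ± 0.135 (edgeR adjusted p = 0.0403), a call lost without Control 24 h replicate 2 or 3 or Activator 24 h replicate 2 or 3 (edgeR adjusted p from 0.0735 to 0.297). It was also lost with DESeq2 size factors (-0.23, edgeR adjusted p = 0.184). With library size alone and under scaling to mitochondrial mRNAs it passed (-0.31 and -0.58, edgeR adjusted p = 0.0184 and 2.34e-04). Between 12 and 24 h it fell by 0.70 ± 0.135 in the Activator line (edgeR adjusted p = 3.49e-04).

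The SUN genes ran differently from each other. Sun1 stood at 92.0, 89.9 and 93.1 CPM in uninduced Control and 91.5, 88.8 and 89.1 in uninduced Activator libraries. At induction it stood at 89.5, 88.3 and 88.0 and 101, 103 and 103, and at 3 h at 88.8, 83.1 and 88.7 and 110.1, 109 and 116 CPM. Replicates were tight, and the lines did not overlap at induction or at 3 h. At 6 h the values were 92.5, 84.8 and 87.0 in Control and 106, 101 and 106 in Activator. At 12 h they were 86.8, 87.1 and 90.6 and 95.6, 90.3 and 90.9, and at 24 h 85.0, 79.8 and 85.0 and 77.9, 75.8 and 74.7 CPM. Sun1 was higher in Activator at induction (0.21 ± 0.0551, edgeR adjusted p = 0.0021), 3 h (0.36 ± 0.0551, edgeR adjusted p = 1.41e-06) and 6 h (0.25 ± 0.0551, edgeR adjusted p = 2.53e-04), but lower at these 3 times under scaling to mitochondrial mRNAs (-0.15, -0.23 and -0.46). The 3 h value lay 0.20 to 0.25 above the median of all genes over the 4 scalings. The calls at induction and 6 h were lost with library size alone (0.15 and 0.10, edgeR adjusted p = 0.0557 and 0.170) and with only the 6 libraries of the time (edgeR adjusted p = 0.0554 and 0.0796), and the former also without replicate 3 in all groups (edgeR adjusted p = 0.122). At 24 h Sun1 was lower in Activator (-0.13 ± 0.0552, edgeR adjusted p = 0.0429), and this call was lost without Control 24 h replicate 1 or 3 or any 1 of the Activator 24 h replicates (edgeR adjusted p from 0.106 to 0.253). It was also lost with DESeq2 size factors (-0.045, edgeR adjusted p = 0.533) and library size alone (-0.11, edgeR adjusted p = 0.149). Under scaling to mitochondrial mRNAs it passed (-0.38, edgeR adjusted p = 0.0279).

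Sun2 had a higher CPM in every Activator than in every Control library before induction. Uninduced libraries held 84.0, 80.0 and 95.2 CPM in Control and 116, 96.6 and 99.5 in Activator, a difference of 0.27 ± 0.0876 that did not pass (edgeR adjusted p = 0.158). At induction the values were 71.3, 72.3 and 67.6 and 87.3, 84.7 and 90.1, and at 3 h 88.7, 88.6 and 81.3 and 97.9, 89.6 and 98.8 CPM. At 6 h they were 94.7, 68.5 and 70.7 and 88.7, 84.0 and 93.8 CPM. Only the 6 h groups of these 4 times overlapped, with Control 6 h replicate 1 above all 3 Activator libraries. At 12 h Sun2 stood at 69.8, 66.5 and 73.2 in Control and 95.8, 94.2 and 92.3 in Activator, and at 24 h at 69.9, 62.7 and 71.5 and 74.7, 69.3 and 82.2 CPM. The differences that passed were 0.31 ± 0.0878 at induction (edgeR adjusted p = 0.00369), 0.19 ± 0.0878 at 6 h (edgeR adjusted p = 0.0485) and 0.43 ± 0.0879 at 12 h (edgeR adjusted p = 7.39e-05), and these turned to -0.049, -0.52 and -0.20 under scaling to mitochondrial mRNAs. The 6 h call was lost without Control 6 h replicate 2 or 3 or any 1 of the Activator 6 h replicates (edgeR adjusted p from 0.0525 to 0.278). The 12 h value lay 0.26 to 0.34 above the all-gene median. Under TMM no difference in the change of Sun2 from uninduced between the lines passed at any time, the values running from -0.12 at 3 h to 0.16 at 12 h. Under scaling to mitochondrial mRNAs it passed at 3 h (-0.74, edgeR adjusted p = 0.0138) and 6 h (-0.82, edgeR adjusted p = 0.0061), and with DESeq2 size factors at 12 h (0.35, edgeR adjusted p = 0.023).

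Sun1 as a share of the summed CPM per kb of both SUN genes was 43.9, 44.5 and 41.1% in uninduced Control and 35.9, 39.6 and 39.0% in uninduced Activator replicates. At 3 h it was 41.6, 40.1 and 43.8% and 44.5, 46.5 and 45.6%, and at 12 h 47.0, 48.3 and 46.9% and 41.6, 40.6 and 41.3%. The share was thus lower in Activator at the first and the last of these times and higher at 3 h. The difference was -4.98 percentage points before induction and -1.79, 3.69, 0.722, -6.23 and -4.71 from induction to 24 h. Groups overlapped at 6 h (two-sided exact permutation p = 1) and not at the other 5 times (p = 0.1 each, the smallest possible, and 0.12 after adjustment).

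**Figure D3:**
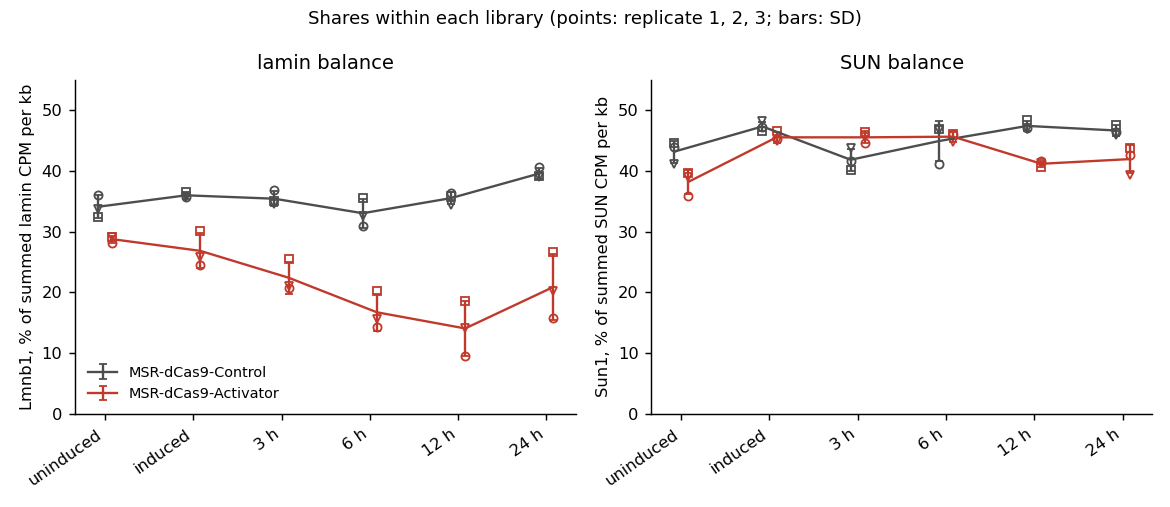
Lmnb1 as percent of the summed lamin CPM per kb and Sun1 as percent of the summed SUN CPM per kb (y axes) in each library at 6 time points (x axes), with means and SD of 3. The lamin share falls from 28.8% to 14.1% between uninduced and 12 h in Activator and stays between 33.0% and 39.6% in Control means, and the SUN share overlaps between the lines at 6 h only.

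Counted by groups that did not overlap, the B-type lamins and Tmpo again stood lower most often. Of the 9 genes, 5 were lower and 1 higher in all Activator libraries than in all Control libraries before induction, where 7.48% of all genes tested were lower and 8.57% higher by the same count. From induction to 24 h 3, 4, 2, 4 and 5 were lower, against 26.5%, 31.9%, 30.8%, 32.5% and 26.0% of all genes, and 2, 3, 1, 1 and 0 were higher, against 31.4%, 39.6%, 38.4%, 41.2% and 34.4%. All 9 members are abundant, and these shares were not computed for genes with a mean normalised count above 100 alone. No excess of the 9 is claimed from these counts. Lmnb1 and Tmpo were lower at all 6 times, Lmnb2 at 5, Lbr before induction and at 12 and 24 h, and Lmna at 0.

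Measured from each line's own uninduced cells, more of the 9 genes changed in Activator than in Control. The same was true of all genes tested, so this contrast is no result about the 9. In Activator, 3 rose and 1 fell at induction, 3 rose and 3 fell at 3 h, 2 rose and 4 fell at 6 h, 1 rose and 3 fell at 12 h, and 0 rose and 7 fell at 24 h. Of all genes 61.0%, 73.1%, 74.8%, 75.2% and 62.0% changed at these times. In Control edgeR called 0 of 9 at induction and at 3, 6 and 12 h, where 0.249%, 0.578%, 0.427% and 1.19% of all genes passed. DESeq2 also called 0 there, and at an unadjusted p under 0.05 edgeR called 1, 1, 0 and 1. At 24 h 1 passed in Control, Sun2, with -0.35 ± 0.0879 (edgeR adjusted p = 0.0445), against 1.21% of all genes, and this call was lost in each of the 9 fits that left out a library or a replicate number. The contrasts of a line share its uninduced libraries.

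The difference between the lines in these changes, which removes what already differed before induction, passed for 2, 4, 4, 2 and 4 of the 9 genes from induction to 24 h, against 32.1%, 47.0%, 50.1%, 50.7% and 30.9% of all genes. It was largest for Lmnb1 at 12 h, -1.51 ± 0.126 (edgeR adjusted p = 5.60e-10). For Tmpo it was -0.91 ± 0.129 at 24 h (edgeR adjusted p = 6.27e-06) and for Lbr -0.62 ± 0.127 (edgeR adjusted p = 4.54e-04). For Lemd3 it was -0.84 ± 0.230 at 3 h (edgeR adjusted p = 0.00388), a call lost without replicate 1 (edgeR adjusted p = 0.0907) or replicate 3 (edgeR adjusted p = 0.105) in all groups. Banf1 and Sun1 differed upward at 3 h, by 0.64 ± 0.191 (edgeR adjusted p = 0.00702) and 0.39 ± 0.0779 (edgeR adjusted p = 1.67e-04), with the value of Sun1 at -0.23 and that of Banf1 at 0.01 under scaling to mitochondrial mRNAs.

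Between 12 and 24 h after removal, 1 of the 9 genes rose (Lmnb1) and 6 fell in Activator, where 35.8% of all genes changed. In Control edgeR and DESeq2 called 0 (0.371% of all genes), and at an unadjusted p under 0.05 edgeR called 1, Lmna. The difference between the lines passed for 2, Lmnb1 and Lbr (14.8% of all genes). Lmnb1 and Banf1 moved back toward their uninduced levels, while Lmnb2 (-0.39 ± 0.0913, edgeR adjusted p = 0.00206), Lbr and Tmpo moved further from it. Lemd3 was at 37.7 CPM at 12 h and 46.0 CPM at 24 h (0.33 ± 0.163, edgeR adjusted p = 0.11).

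Sums of other markers also differed between the lines late in the course. The summed level of 12 proliferation genes was 1778 ± 197 CPM in Activator and 3240 ± 71.9 in Control at 24 h, and 2543 ± 499 against 3619 ± 73.8 at 12 h (SD, n = 3 each). At 3 h it was 3595 ± 469 in Activator and 3534 ± 103 CPM in Control. Of the 12 genes 6 were higher and 3 lower in Activator at 3 h, against 39.3% and 31.7% of all genes. The fibroblast markers summed to 14312 ± 4737 in Activator and 24689 ± 1264 CPM in Control at 24 h. Their part in the results was not tested.

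**Figure D4:**
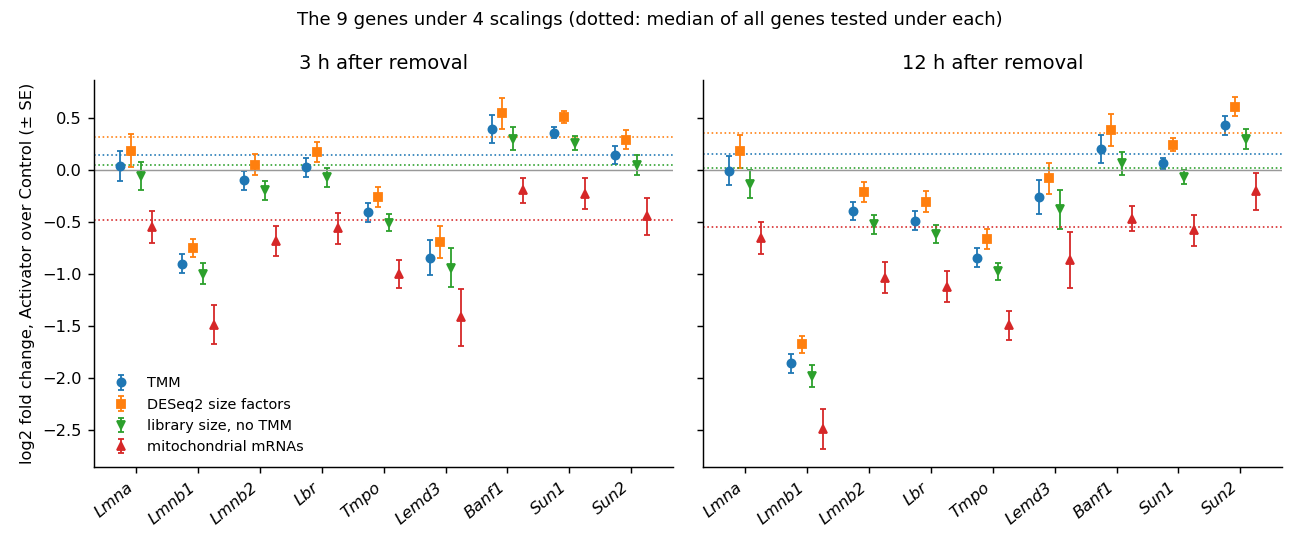
Log2 fold change ± SE of Activator over Control (y axes) for the 9 genes (x axes) at 3 h and 12 h under TMM, DESeq2 size factors, library size alone and scaling to mitochondrially encoded mRNAs, with dotted lines at the all-gene median of each scaling. At 12 h Lmnb1 differs from the median of each scaling by -2.03 to -1.95 and Tmpo by -1.02 to -0.95, while Sun2 lies 0.26 to 0.34 above it but below 0 under mitochondrial scaling.

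Over the 12 group means, the genes most like each member were sought among 13632 genes with a mean normalised count above 100. Lmnb1 ran closest to Bzw2 (Pearson r = 0.997) and Recql (r = 0.995), Tmpo to Polr3k (r = 0.992) and Ttll12 (r = 0.988), and Lbr to Psmd13 (r = 0.983) and Psma1 (r = 0.979). Banf1 ran closest to Mcm3 (r = 0.994), a subunit of the replicative helicase, and Ssrp1 (r = 0.990), a subunit of the histone chaperone FACT. Sun1 ran closest to 9530068E07Rik (r = 0.986), and Lemd3 to Gm4430 (r = 0.989) and Rnf217 (r = 0.983). Lmnb2 (Ecsit, r = 0.962, and Cenps, r = 0.957), Sun2 (Slpi, r = 0.936, and Gnai1, r = 0.914) and Lmna (Actn1, r = 0.895, and Kpna4, r = 0.894) had looser matches. Among the members r was 0.903 for Lmnb1 with Tmpo and for Lmnb2 with Tmpo, 0.850 for Banf1 with Sun1, and -0.885 for Sun1 and -0.800 for Banf1 with Lemd3. The 12 means share a line, a time course and their libraries, so these values are descriptive.

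The 4 lists that follow were written to hold further genes of the envelope, and where each protein lies was not checked. At 12 h, 3 of 13 genes listed as other inner membrane and linker genes were higher and 7 lower in Activator. Their median was -0.62 against 0.15 for all genes, and at 24 h 1 was higher and 9 lower (median -0.37). For these and the other lists, the background at 12 h was 42.2% of all genes higher and 33.1% lower, and at 24 h 36.4% and 26.3%. Of the genes with a mean normalised count above 100, 27.4% were higher and 49.3% lower at 12 h (median -0.26) and 20.2% and 44.7% at 24 h (median -0.24). Tor1aip2, an activator of torsin ATPases, had the largest rise, 489.9, 553 and 533 CPM in Activator against 208, 205 and 202 in Control at 12 h, or 1.36 ± 0.0955 (edgeR adjusted p = 5.81e-13). Nemp1, a multi-pass inner membrane protein, had the largest fall, 10.1, 16.9 and 12.2 against 42.1, 45.4 and 43.3 CPM, or -1.76 ± 0.149 (edgeR adjusted p = 2.33e-11). Like the genes named in the other lists, both were chosen as the largest differences at 12 h that passed, so passing is no further result. Neither pair of groups overlapped, where 41.2% of all genes were higher and 32.5% lower by that count at 12 h. Both kept their direction under the 4 scalings.

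Of the 5 enzymes that farnesylate and trim lamins, 0 were higher at 12 or 24 h while 3 were lower at 12 h and 4 at 24 h (medians -0.23 and -0.50). Rce1, the protease that removes the last residues of farnesylated proteins, fell most, with 6.10, 9.30 and 6.07 CPM in Activator against 17.8, 18.4 and 19.0 in Control at 12 h, or -1.37 ± 0.129 (edgeR adjusted p = 2.12e-10). Of 27 nuclear pore genes tested (29 listed, 28 in the table), 5 were higher and 17 lower at 12 h (median -0.50) and 2 higher and 18 lower at 24 h (median -0.37). Seh1l, a component of the Y complex of the pore, stood at 61.1, 67.5 and 63.4 against 156, 155 and 144 CPM at 12 h, or -1.24 ± 0.0927 (edgeR adjusted p = 1.85e-12). Sec13, a component both of the pore and of COPII vesicle coats, had the largest rise, at 214, 138 and 189 against 104, 105 and 98.9 CPM, or 0.79 ± 0.1246 (edgeR adjusted p = 2.01e-06). Under scaling to mitochondrial mRNAs the pore genes counted 0 higher and 25 lower at 12 h, and Sec13 no longer passed (0.14 ± 0.116, edgeR adjusted p = 0.286).

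The 11 genes of envelope resealing, mostly subunits of the ESCRT-III machinery, counted 7 higher and 4 lower at 12 h (median 0.50, and -0.14 with 1 higher and 5 lower under scaling to mitochondrial mRNAs) and 4 higher and 3 lower at 24 h (median 0.12). Chmp4c had the largest rise, at 22.6, 32.8 and 31.6 CPM in Activator against 5.94, 6.78 and 6.43 in Control at 12 h, or 2.18 ± 0.186 (edgeR adjusted p = 2.69e-11). Chmp7, which recruits ESCRT-III to the re-forming envelope, had the largest fall, at 15.8, 21.2 and 13.3 against 27.5, 29.8 and 28.9 CPM, or -0.79 ± 0.103 (edgeR adjusted p = 9.64e-08). For comparison, 0 of 12 proliferation genes were higher at either time, while 8 were lower at 12 h and 10 at 24 h (medians -0.45 and -0.80). Of the 13 mitochondrially encoded mRNAs 8 were higher and 0 lower at 12 h (median 0.60). The 4 envelope lists were written with earlier results of these data known.

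**Figure D5:**
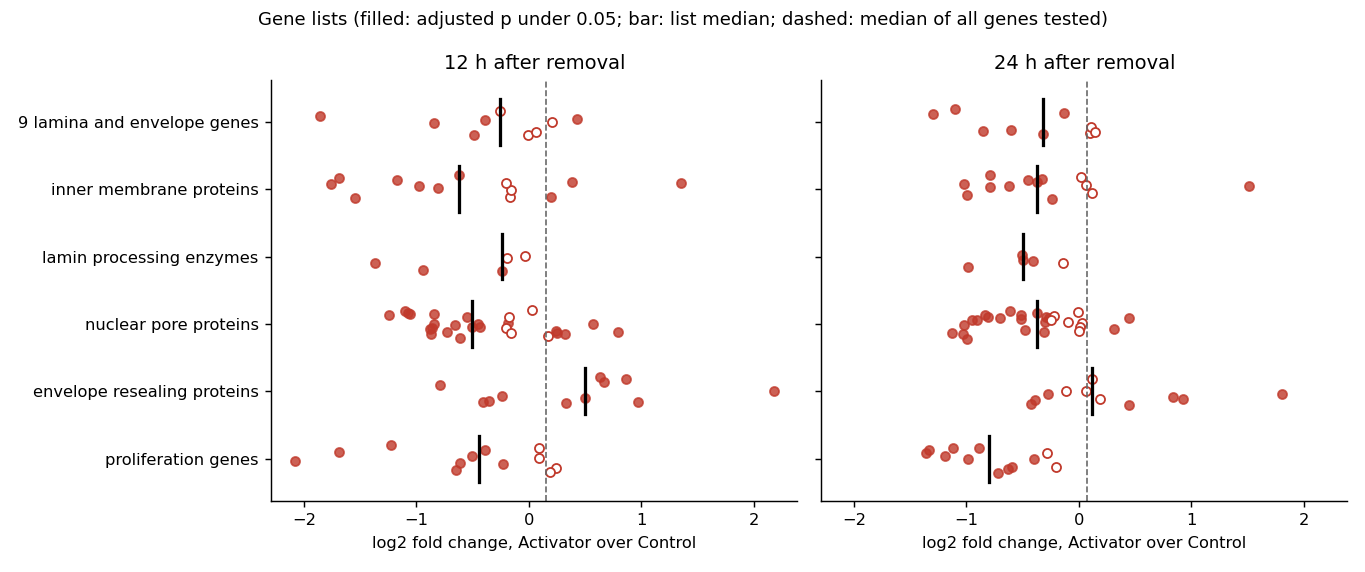
Log2 fold change of Activator over Control (x axes) for each gene of 6 lists (y axes) at 12 h and 24 h, with a bar at the median of each list and a dashed line at the median of all genes, 0.15 at 12 h and 0.08 at 24 h. At 12 h the medians of the inner membrane, pore and proliferation lists are -0.62, -0.50 and -0.45, and that of the resealing list is 0.50, or -0.14 when libraries are scaled to mitochondrially encoded mRNAs.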

How the data were processed

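RNA was measured in 36 libraries by ribosomal RNA-depleted, stranded total RNA sequencing. The authors trimmed reads with cutadapt and used STAR to align them to GRCm38. Counts of genes and of repeat families came from TEtranscripts, and the deposited values are whole counts without normalisation. The paper states that STAR was run with the settings that TEtranscripts recommends. Their values, and the strand and multi-mapping settings of TEtranscripts itself, are not given in the sources used here. Of 54842 genes, 54495 matched GENCODE M21, and 1 unnamed entry (0.00210% to 0.00452% of counts) and 1561 repeat families were left out of library sizes. The members and gene lists were chosen with earlier results of these data known, though the rule for the members used symbols and not their values.

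Counts were fitted in R 4.3.3 with edgeR 4.0.16 (filterByExpr, TMM, estimateDisp and glmQLFit robust, glmQLFTest, limma 3.58.1) by line and time point with the replicate number as block, as in the study's design, or additively with time point, in all 36 libraries. P-values were adjusted by Benjamini-Hochberg over 28542 genes, and SE is the size of the log2 fold change over the square root of F. CPM per kb used the union of exons. Shares of lamin and SUN transcripts were compared by exact permutation. The code was tested on simulated data. DESeq2 1.42.0, Python 3.11.15, numpy 2.4.6, pandas 2.3.3, scipy 1.17.1 and matplotlib 3.10.9 were also used. No 2 libraries correlated above 0.9975.

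Named were all 9 members, in each of the 4 other envelope lists the gene with the largest rise and that with the largest fall at 12 h among those that passed, and for each member the 2 genes with the highest Pearson r over the 12 group means of log2(CPM + 0.5). For Sun1, 1 of these genes is not reported here. Alternatives were other scalings (DESeq2 size factors, library size, mitochondrial mRNAs, repeats in the library size), the DESeq2 test, other filters, no replicate block, only the libraries of a time point, other lengths for the shares, and leaving out libraries. Same-numbered libraries of the 2 lines correlated at -0.006 to 0.396 after removal of group means, with 15 of 18 over 0.1 and 3 not. As a block in the main fits, the number links same-numbered libraries of all groups. The exact permutation tests of the shares did not use it.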

Additional observations from a re-analysis of the deposited data

Results flagged for a closer look

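The 18 results below are differences between the lines in a change, each the Activator change minus the Control change from edgeR's interaction contrast, with a Benjamini-Hochberg adjusted p under 0.05 over 28542 genes. Groups of 3 libraries were not tested for single outlying libraries.

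For Lmnb1 the difference was -0.56 ± 0.1252 at 3 h (edgeR adjusted p = 6.34e-04), -0.94 ± 0.126 at 6 h (9.77e-07), -1.51 ± 0.126 at 12 h (5.60e-10) and -0.96 ± 0.126 at 24 h (2.33e-06). Between 12 and 24 h it was 0.55 ± 0.126 for Lmnb1 (edgeR adjusted p = 0.00346). For Lmnb2 it was -0.36 ± 0.128 at 24 h (edgeR adjusted p = 0.0347), a call lost without any 1 library of the 4 groups other than Activator uninduced replicate 2 or 3 or Activator 24 h replicate 1 (adjusted p from 0.0530 to 0.128).

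For Tmpo the difference was -0.65 ± 0.128 at 12 h (edgeR adjusted p = 1.32e-04) and -0.91 ± 0.129 at 24 h (6.27e-06). For Lbr it was 0.32 ± 0.126 at induction (edgeR adjusted p = 0.0487), -0.62 ± 0.127 at 24 h (4.54e-04) and -0.37 ± 0.127 between 12 and 24 h (0.0455), the last 0.0097 under scaling to mitochondrial mRNAs. The induced value of Lbr no longer passed without any 1 library of the 4 groups other than Activator uninduced replicate 2 (adjusted p from 0.0581 to 0.152), and it was -0.071 under scaling to mitochondrial mRNAs.

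For Lemd3 the difference was -0.84 ± 0.230 at 3 h (edgeR adjusted p = 0.00388) and -0.56 ± 0.230 at 6 h (0.0442). The 6 h value of Lemd3 no longer passed without any 1 library of the 4 groups other than Control uninduced replicate 3, Activator uninduced replicate 2 or Activator 6 h replicate 2 (adjusted p from 0.0542 to 0.146). For Banf1 it was 0.64 ± 0.191 at 3 h (edgeR adjusted p = 0.00702) and 0.71 ± 0.191 at 6 h (0.00297), the latter -0.049 under scaling to mitochondrial mRNAs.

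For Sun1 the difference was 0.24 ± 0.0779 at induction (edgeR adjusted p = 0.0210), 0.39 ± 0.0779 at 3 h (1.67e-04) and 0.27 ± 0.0779 at 6 h (0.00459), and all 3 turned to -0.16, -0.23 and -0.47 under scaling to mitochondrial mRNAs. The induced value of Sun1 no longer passed without Control uninduced replicate 2 or 3, Control induced replicate 1 or 3, Activator uninduced replicate 3 or Activator induced replicate 2 or 3 (adjusted p from 0.0533 to 0.0784).

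Without replicate 1 in all 12 groups, the values of Banf1 and Lemd3 at 3 h and 6 h and of Lmnb1 and Lbr between 12 and 24 h no longer passed (edgeR adjusted p from 0.0532 to 0.332). Without replicate 3 these 6 no longer passed either, nor did those of Sun1 at 3 h and 6 h (edgeR adjusted p from 0.0552 to 0.323).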

How the results depend on the processing

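Of 3933 recomputed values for single genes, 1523 kept their direction and their side of the threshold under other settings and 1741 when libraries or replicate numbers were left out. A further 117 and 148 changed sign and passed under neither setting. Under other settings 86 no longer passed, 82 newly passed and 46 that passed under either setting changed sign, and with libraries left out these counts were 149, 41 and 0. The falls of Lmnb1, Tmpo and late Lbr relative to Control kept their direction under all settings. What limits these results is the scaling: fold changes of the size of those of Banf1, Sun1 and Sun2 depend on the choice of genes taken as constant, and with 3 replicates a share cannot reach an exact p below 0.1.

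Scaling to mitochondrially encoded mRNAs changed 82 signs, 38 of them of values that passed neither way. The other 44 are these. Activator against Control became -0.15 for Sun1 and -0.049 for Sun2 at induction, and -0.56 for Lbr, -0.19 for Banf1, -0.54 for Lmna, -0.23 for Sun1 and -0.44 for Sun2 at 3 h. At 6 h it became -0.65 for Lbr, -0.25 for Banf1, -0.66 for Lmna, -0.46 for Sun1 and -0.52 for Sun2, and at 12 h -0.46 for Banf1, -0.58 for Sun1 and -0.20 for Sun2. Over the course it became -0.30 for Banf1, -0.36 for Lmna, -0.30 for Sun1 and -0.17 for Sun2. From uninduced, the Activator line changed by -0.16 for Lbr, -0.022 for Banf1, -0.56 for Lmna, -0.38 for Sun1 and -0.41 for Lmnb2 at induction, by -0.080 for Lbr, -0.52 for Lmna, -0.24 for Sun1 and -0.47 for Lmnb2 at 3 h, by -0.58 for Lbr, -0.087 for Banf1, -0.74 for Lmna and -0.53 for Sun1 at 6 h, and by -0.47 for Sun1 and -0.51 for Lmnb2 at 12 h. The differences of changes became -0.071 for Lbr and -0.16 for Sun1 at induction, -0.62 for Lmna and -0.23 for Sun1 at 3 h, -0.049 for Banf1, -0.73 for Lmna and -0.47 for Sun1 at 6 h, and -0.58 for Sun1 at 12 h. From 12 to 24 h Sun1 became 0.0011 in Activator and Lbr 0.0097 between the lines. The change of Lbr in Activator at 12 h became 0.0035 with DESeq2 size factors and 0.0044 by the DESeq2 test. The cause was not tested.

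Counts of the 9 genes that passed moved by over 1.5 times as follows. Before induction the count went from 1 to 0 with library size alone, mitochondrial scaling, repeats in the library size, no filter, no replicate block or only the 6 libraries. Only the 6 libraries gave 3 in place of 7 at 6 h. Mitochondrial scaling gave 8 in place of 5 at 12 h, and from uninduced in Activator 7 in place of 4 at induction and 8 in place of 4 at 12 h. In Control the count became 1 at 12 h with only genes above a mean of 100, and 0 at 24 h with DESeq2 size factors, library size alone, mitochondrial scaling, no filter or no replicate block. For the difference of changes at induction, 2 became 0 with library size alone or no filter and 1 with mitochondrial scaling, repeats or no replicate block. At 12 h, 2 became 5 with DESeq2 size factors or its test, 4 with library size alone and 7 with mitochondrial scaling. From 12 to 24 h, 7 became 4 with library size alone and 2 with mitochondrial scaling in Activator, and for the difference between the lines 2 became 5 with DESeq2 size factors, 6 by its test, 4 above a mean of 100, and 1 with library size alone, mitochondrial scaling, no filter or no replicate block. The fit with no replicate block also lost Sun2 at 6 h (edgeR adjusted p = 0.0882) and Banf1 at 24 h (edgeR adjusted p = 0.137). Of 18 Activator libraries 16 lay closest to the Control library of their own number, a hint from the data only.

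With libraries left out, the counts for Activator against Control ran from 0 to 1 before induction, then 2 to 6, 4 to 6, 3 to 7, 4 to 7 and 4 to 5 from induction to 24 h, and 5 to 8 over the course. From uninduced in Activator they ran from 2 to 6, 5 to 6, 4 to 7, 3 to 4 and 5 to 7 from induction to 24 h, and in Control they were 0 at all times. The difference of changes ran from 0 to 3, 1 to 4, 1 to 5, 2 to 4 and 3 to 4. From 12 to 24 h the counts ran from 2 to 8 in Activator and 0 to 5 for the difference. The lamin share of Lmnb1 differed by -3.91, -6.66, -9.14, -11.0, -14.5 and -13.4 percentage points on raw counts from uninduced to 24 h, and by -13.6 at 6 h and -17.8 at 12 h with the longest transcript.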
